A study of Mus musculus with 2 samples.

Results

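The TRBJ2 genes are the second cluster of J segments of the T cell receptor (TCR) β-chain of the mouse. A clonotype is an entry of the deposited lists, defined by the nucleotides of its CDR3 and its V and J genes, and it was counted here when its first V hit was a TRBV gene and its first J hit was a TRBJ2 gene. This rule took 227 clonotypes with 2252 reads in hepatic CD8αα T cells, out of 337 TCR β-chain clonotypes with 2995 reads. In hepatic CD8αβ T cells it took 626 clonotypes with 1288 reads, out of 915 with 1850 reads. Of the 72 J genes of all chains found in the lists, 6 were TRBJ2 genes (TRBJ2-1, TRBJ2-2, TRBJ2-3, TRBJ2-4, TRBJ2-5 and TRBJ2-7) and 6 were TRBJ1 genes.

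Both cell types were sorted from the liver of TG (dnTGFβRII) mice on the C57BL/6 background, with an age of 10 weeks in the sample labels. The transgene places a dominant-negative human TGF-β receptor II under the mouse Cd4 promoter, it was carried by the donors of both libraries, and the mice are used as a model of autoimmune cholangitis. PolyA RNA was sequenced in bulk, 1 library for each cell type, and receptor reads were assembled into clonotypes. The lists hold receptor chains only, so Cd8a and Cd8b1 could not be checked in them, and how many mice were pooled is not given in the sources used here.

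Since there is 1 library a cell type, every test below sets 1 library against the other and not the conditions, and replicates to check a difference are lacking. The libraries differed in depth, with 2995 TCR β-chain reads in CD8αα and 1850 in CD8αβ T cells. Reads for each clonotype of this chain were 8.89 and 2.02, a mean clone size that does not measure depth alone. A floor of 3 reads is 0.100% of the CD8αα and 0.162% of the CD8αβ reads of this chain. Without molecular identifiers, several reads can stem from the same molecule, and reads of the same clonotype are not independent. The 95% intervals and the floors therefore cover the error of counting only. Tests on reads take each read as independent, so their p-values can be too small and their counts of differences too high. More reads of a clonotype can come from more cells or from more receptor RNA in each cell, and these cannot be told apart in bulk RNA.

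A β-chain gene is assembled in the thymus by joining a D segment to a J segment and then a V segment to the joined pair. Each J cluster stands behind its own D segment and in front of its own constant gene, TRBJ1 behind TRBD1 and TRBJ2 behind TRBD2, so TRBD1 can join either cluster, while TRBD2 lies downstream of TRBJ1. The J segment writes the last residues of CDR3, the loop that contacts the bound peptide, and the framework strand after it. Bases are lost from the J end and other bases are added before the join is sealed, so clonotypes with the same J gene differ most at the start of its part.

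In GRCm38 with the GENCODE annotation, the 6 genes lie on the plus strand of chromosome 6, each as 1 exon of a TCR J gene. TRBD2 (chr6:41542163-41542176) ends 577 bases before TRBJ2-1. The cluster spans 1103 bases from the start of TRBJ2-1 (chr6:41542754-41542803) to the end of TRBJ2-7 (chr6:41543810-41543856), and TRBC2 (chr6:41546730-41548352) starts 2873 bases further on. The other members are TRBJ2-2 (chr6:41542957-41543007), TRBJ2-3 (chr6:41543223-41543271), TRBJ2-4 (chr6:41543362-41543410) and TRBJ2-5 (chr6:41543453-41543501). The germline sequences are shown because the length of their CDR3 part, in capitals, differs between genes and enters the CDR3 lengths below.
TRBJ2-1: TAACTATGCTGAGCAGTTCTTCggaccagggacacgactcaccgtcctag
TRBJ2-2: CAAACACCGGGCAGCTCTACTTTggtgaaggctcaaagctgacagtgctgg
TRBJ2-3: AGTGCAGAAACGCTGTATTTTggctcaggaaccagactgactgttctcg
TRBJ2-4: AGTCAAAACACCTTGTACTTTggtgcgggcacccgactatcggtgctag
TRBJ2-5: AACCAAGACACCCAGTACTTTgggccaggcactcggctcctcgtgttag
TRBJ2-7: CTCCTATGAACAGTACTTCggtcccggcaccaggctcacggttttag
The capitals number 22 bases in TRBJ2-1, 23 in TRBJ2-2, 21 each in TRBJ2-3, TRBJ2-4 and TRBJ2-5, and 19 in TRBJ2-7, the shortest. TRBJ2-6, at chr6:41543598-41543645, is annotated as a pseudogene, and no clonotype had it as first J hit. In 846 of the 853 TRBJ2 clonotypes of both libraries, or 99.2%, the bases assigned to J matched the germline gene exactly.

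The largest clonotype of each gene is shown next, because a few of them decide the read counts of their gene. Capitals mark the bases assigned to J, which can include a few bases added at its start, and lower case marks the V part and the junction with its D bases. The V gene and the reads are in each name. In CD8αα T cells these clonotypes were the following.
TRBJ2-1 with TRBV16, 663 reads: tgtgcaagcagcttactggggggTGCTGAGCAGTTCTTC
TRBJ2-2 with TRBV12-2, 17 reads: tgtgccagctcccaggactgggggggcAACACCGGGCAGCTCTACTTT
TRBJ2-3 with TRBV1, 21 reads: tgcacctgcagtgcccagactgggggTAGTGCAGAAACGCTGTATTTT
TRBJ2-4 with TRBV16, 18 reads: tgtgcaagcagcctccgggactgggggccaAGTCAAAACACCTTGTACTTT
TRBJ2-5 with TRBV1, 121 reads: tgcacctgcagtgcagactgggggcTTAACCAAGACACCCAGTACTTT
TRBJ2-7 with TRBV5, 231 reads: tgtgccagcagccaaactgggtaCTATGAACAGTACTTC
In CD8αβ T cells they were these.
TRBJ2-1 with TRBV12-2, 41 reads: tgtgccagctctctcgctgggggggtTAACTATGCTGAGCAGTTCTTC
TRBJ2-2 with TRBV12-2, 16 reads: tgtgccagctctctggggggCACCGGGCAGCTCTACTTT
TRBJ2-3 with TRBV1, 18 reads: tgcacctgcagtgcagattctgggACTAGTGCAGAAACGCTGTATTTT
TRBJ2-4 with TRBV16, 20 reads: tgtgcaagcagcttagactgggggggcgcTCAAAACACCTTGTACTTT
TRBJ2-5 with TRBV3, 9 reads: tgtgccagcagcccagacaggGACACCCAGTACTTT
TRBJ2-7 with TRBV4, 91 reads: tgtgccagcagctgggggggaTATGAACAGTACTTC
The V gene of the largest clonotype was the same in both libraries for TRBJ2-2, TRBJ2-3 and TRBJ2-4, with different CDR3s. Of all 337 and 915 TCR β-chain clonotypes, 3 were listed in both libraries with the same nucleotide CDR3, V and J. None of them was among the 227 and 626 TRBJ2 clonotypes, and 3 were among the 110 and 289 TRBJ1 clonotypes. With the amino acid CDR3 in place of the nucleotide sequence, 1 TRBJ2 clonotype was in both, TRBV13-2 with TRBJ2-3, at 1 read in CD8αα and 4 reads in CD8αβ T cells. For TRBJ1 it was 4 clonotypes. Sharing was thus rare in both clusters, and a difference between them was not tested.

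The question of the first comparison was whether the J segments were used alike in both cell types. With each clonotype counted once, no difference in the cluster as a whole was detectable. TRBJ2 was the J cluster of 67.4% (95% Wilson interval 62.2 to 72.1) of the β-chain clonotypes in CD8αα T cells and of 68.4% of those in CD8αβ T cells (65.3 to 71.3). The difference was -1.06 percentage points, with a 95% Newcombe interval of -7.01 to 4.64 (two-sided Fisher's exact test, p = 0.733). By reads TRBJ2 was higher in CD8αα T cells, at 75.2% (73.6 to 76.7) against 69.6% (67.5 to 71.7), a difference of 5.57 points (2.98 to 8.19; two-sided Fisher's exact test, p = 2.64e-05). Without the largest clonotype of each TRBJ gene the shares were 71.7% and 69.7%, and the difference fell to 2.0004 points (-1.15 to 5.15), which did not pass (Fisher's exact test, p = 0.215).

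Gene by gene, the clonotypes fell in the same order in both libraries, from TRBJ2-7 through TRBJ2-1, TRBJ2-5, TRBJ2-4 and TRBJ2-3 down to TRBJ2-2. TRBJ2-7 was the J gene of 78 clonotypes in CD8αα T cells, or 23.1% of the TCR β-chain clonotypes (19.0 to 27.9), and of 215 in CD8αβ T cells, or 23.5% (20.9 to 26.4). TRBJ2-1 followed with 68 clonotypes, or 20.2% (16.2 to 24.8), and 128 clonotypes, or 13.99% (11.9 to 16.4). TRBJ2-1 thus stood close to TRBJ2-7 in CD8αα T cells and well under it in CD8αβ T cells. TRBJ2-5 had 29 and 89 clonotypes, and TRBJ2-4 had 23 and 80. TRBJ2-3 had 16 and 62, and TRBJ2-2 had 13 and 52. Each of these 4 genes held between 3.86% and 9.73% of the clonotypes.

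Not every step of that order was resolved. Neighbours were compared by 2-sided exact binomial tests of their counts, adjusted by the Benjamini-Hochberg method over the 10 steps of the 2 libraries. In CD8αα T cells only the step from TRBJ2-1 to TRBJ2-5 passed (adjusted p = 0.000467, exact binomial test), and TRBJ2-7 and TRBJ2-1 were not told apart (adjusted p = 0.598, exact binomial test). In CD8αβ T cells TRBJ2-7 exceeded TRBJ2-1 (adjusted p = 3.05e-05, exact binomial test), and TRBJ2-1 exceeded TRBJ2-5 (adjusted p = 0.0324, exact binomial test). The 4 genes from TRBJ2-5 to TRBJ2-2 could not be ordered against their neighbours in either library.

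Between the libraries, none of the 6 TRBJ2 genes passed by clonotypes (two-sided Fisher's exact test, Benjamini-Hochberg adjustment over 12 TRBJ genes), where the background over all TRBJ genes was 0%. TRBJ2-1 was the only TRBJ2 gene with an unadjusted p under 0.05. Its difference was 6.19 points (1.58 to 11.3; Fisher's exact test, p = 0.00857, adjusted p = 0.103). Taken within TRBJ2 alone, TRBJ2-1 was the J gene of 29.96% of the CD8αα clonotypes (24.4 to 36.2) and 20.4% of the CD8αβ clonotypes (17.5 to 23.8), a difference of 9.51 points (3.004 to 16.4; Fisher's exact test, unadjusted p = 0.00428). With TRBJ2 alone as the denominator TRBJ2-1 was thus called after adjustment over these 6 genes, a list chosen with results of these data known. The difference of TRBJ2-7 was -0.352 points, with an interval from -5.42 to 5.11, so a shift of about 5 points either way was not detectable at this depth.

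**Figure D1:**
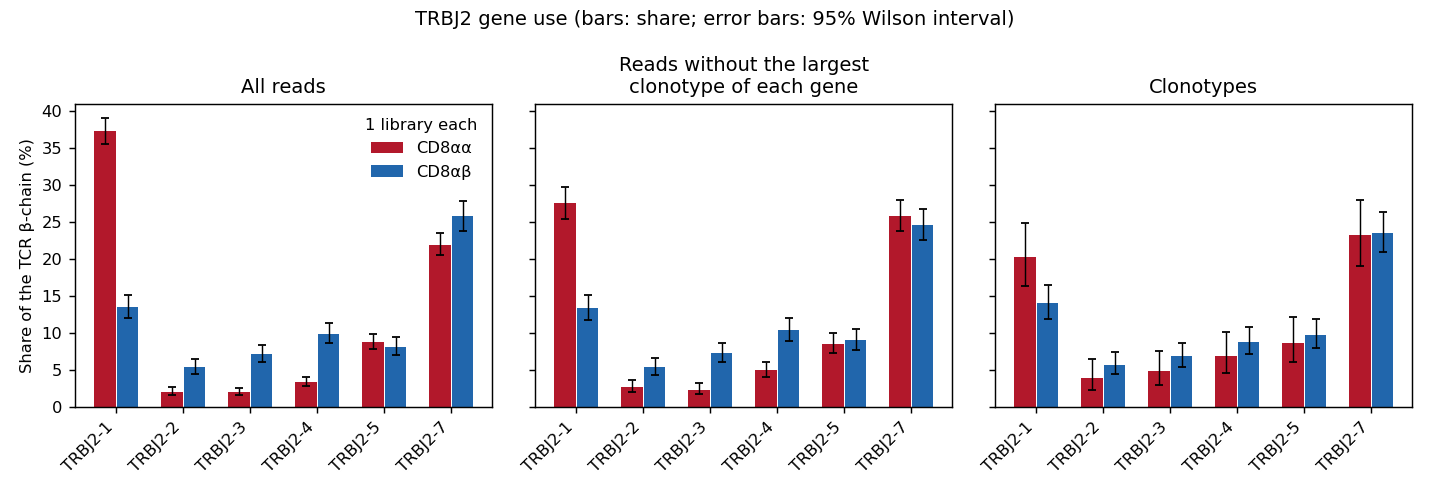
Share of the TCR β-chain in percent (vertical axis) held by each TRBJ2 gene in CD8αα (red) and CD8αβ (blue) T cells, by all reads, by reads without the largest clonotype of each gene, and by clonotypes, with bars for 1 library each and error bars for 95% Wilson intervals. TRBJ2-1 reads stand at 37.3% against 13.5% on the left and at 27.5% against 13.3% in the middle, while the clonotype bars on the right lie closer together at 20.2% and 13.99%.

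By reads the genes parted. Of the 6 TRBJ2 genes, 5 differed between the libraries, 1 higher and 4 lower in CD8αα T cells (2-sided Fisher's exact test of the reads, adjusted over 12 TRBJ genes). The background over all TRBJ genes was 83.3%, so the TRBJ2 genes differed as often as the TRBJ1 genes did. TRBJ2-1 was the higher gene, with 1116 reads in CD8αα T cells, which made 37.3% of the β-chain (35.5 to 39.0), against 250 reads or 13.5% in CD8αβ T cells (12.03 to 15.1). The difference was 23.7 points (21.4 to 26.0; adjusted p = 3.33e-75, Fisher's exact test). That test takes reads as independent, though 663 of the 1116 were of 1 clonotype. The lower genes were TRBJ2-2, TRBJ2-3, TRBJ2-4 and TRBJ2-7. TRBJ2-4 had 99 reads, or 3.31% (2.72 to 4.01), against 182 reads, or 9.84% (8.56 to 11.3; adjusted p = 1.15e-19, Fisher's exact test). TRBJ2-3 had 59 reads, or 1.97% (1.53 to 2.53), against 131 reads, or 7.08% (5.999 to 8.34; adjusted p = 9.48e-18, Fisher's exact test). TRBJ2-2 had 61 reads, or 2.04% (1.59 to 2.61), against 99 reads, or 5.35% (4.42 to 6.47; adjusted p = 1.92e-09, Fisher's exact test). The differences of these 3 genes thus ran from -6.53 to -3.31 points. All shares of a library have the same total, so these lower shares are not separate from the higher share of TRBJ2-1. TRBJ2-7 had 656 reads, or 21.9% (20.5 to 23.4), against 476 reads, or 25.7% (23.8 to 27.8; adjusted p = 0.00355, Fisher's exact test). TRBJ2-5 held 261 reads, or 8.71%, and 150 reads, or 8.11%, a difference of 0.606 points with an interval of -1.03 to 2.18.

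Leaving out the largest clonotype of each gene changed some of these values and not others. For TRBJ2-1, 453 of 1648 remaining reads in CD8αα T cells, or 27.5% (25.4 to 29.7), stood against 209 of 1569 in CD8αβ T cells, or 13.3% (11.7 to 15.1), a difference of 14.2 points (adjusted p = 1.45e-22, Fisher's exact test). Its second clonotype in CD8αα T cells, TRBV4 with TRBJ2-1, had 150 reads, and without the 2 largest of each gene, a choice made after the data were seen, the shares were 23.6% and 13.4%. TRBJ2-1 was therefore higher in CD8αα T cells at each step, by 23.7, 14.2 and 10.3 points. TRBJ2-2, TRBJ2-3 and TRBJ2-4 also stayed lower, at 2.67% against 5.29%, 2.31% against 7.20%, and 4.92% against 10.3% of the remaining reads (adjusted p = 0.000319, 1.22e-10 and 2.05e-08, Fisher's exact test). In all, 4 of the 6 TRBJ2 genes differed without the largest clonotype of each gene, against a background of 41.7% of the TRBJ genes. The lower shares of TRBJ2-2, TRBJ2-3 and TRBJ2-4 were again not separate from the higher share of TRBJ2-1, and by clonotypes none of these genes passed.

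TRBJ2-7 turned when the largest clonotypes of all TRBJ genes, and not only its own, were left out. It was 3.83 points lower in CD8αα T cells with all reads, 1.25 points higher without the largest clonotype of each gene (-1.75 to 4.24; adjusted p = 0.504, Fisher's exact test) and 4.10 points higher without the 2 largest (0.762 to 7.44; adjusted p = 0.0330, Fisher's exact test). The read share of TRBJ2-7 thus had no direction that held over these choices. Leaving out the largest clonotype of each gene also took the total from 2995 to 1648 reads in CD8αα T cells. In CD8αβ T cells it went from 1850 to 1569. Omission of the TRBJ2-7 clonotypes alone was not tested. TRBJ2-5 stayed within counting error, at 8.50% against 8.99% without the largest clonotype of each gene and 8.03% against 9.23% without the 2 largest.

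The size of the largest clonotype of each gene was compared next. In CD8αα T cells the largest TRBJ2-1 clonotype held 59.4% of the reads of its gene (56.5 to 62.3), the largest TRBJ2-5 clonotype 46.4% (40.4 to 52.4) and the largest TRBJ2-7 clonotype 35.2% (31.7 to 38.9). In CD8αβ T cells the same shares were 16.4% (12.3 to 21.5), 6% (3.19 to 11.01) and 19.1% (15.8 to 22.9). For TRBJ2-3 they were 35.6% (24.6 to 48.3) against 13.7% (8.87 to 20.7). For these 4 genes the intervals of the 2 libraries did not overlap. They overlapped for TRBJ2-2, at 27.9% (18.2 to 40.2) against 16.2% (10.2 to 24.7), and for TRBJ2-4, at 18.2% (11.8 to 26.9) against 10.99% (7.23 to 16.4). Of the TRBJ1 genes, the intervals lay apart for TRBJ1-2, TRBJ1-3, TRBJ1-4 and TRBJ1-5 and overlapped for TRBJ1-1 and TRBJ1-6. Intervals that lay apart were thus not particular to TRBJ2. The largest clonotypes of TRBJ2-2, TRBJ2-3 and TRBJ2-4 had 17 to 21 reads in CD8αα and 16 to 20 reads in CD8αβ T cells. Their raw read counts were thus alike, in libraries of 2995 and 1850 TCR β-chain reads.

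Mean reads for each clonotype ran from 3.69 for TRBJ2-3 to 16.4 for TRBJ2-1 in CD8αα T cells, and from 1.69 for TRBJ2-5 to 2.28 for TRBJ2-4 in CD8αβ T cells. Without the largest clonotype the mean of TRBJ2-1 was 6.76 against 1.65, and that of TRBJ2-7 was 5.52 against 1.80. The effective number of clonotypes, calculated within a gene as 1 over the sum of its squared read shares, shows how few clonotypes carried the reads. For TRBJ2-1 it was 2.67 in CD8αα T cells against 27.6 in CD8αβ T cells. For TRBJ2-5 it was 4.09 and 58.6, and for TRBJ2-7 it was 6.95 and 24.2. TRBJ2-4 had the highest value of the 6 genes in CD8αα T cells, 9.58, against 30.4 in the other library. Over the whole cluster, 33 clonotypes with at least 10 reads held 78.0% of the TRBJ2 reads of CD8αα T cells, and 8 such clonotypes held 17.4% of those of CD8αβ T cells. These values move with the depth of a library, at 2995 TCR β-chain reads in CD8αα and 1850 in CD8αβ T cells. The part of depth in them was not tested.

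**Figure D2:**
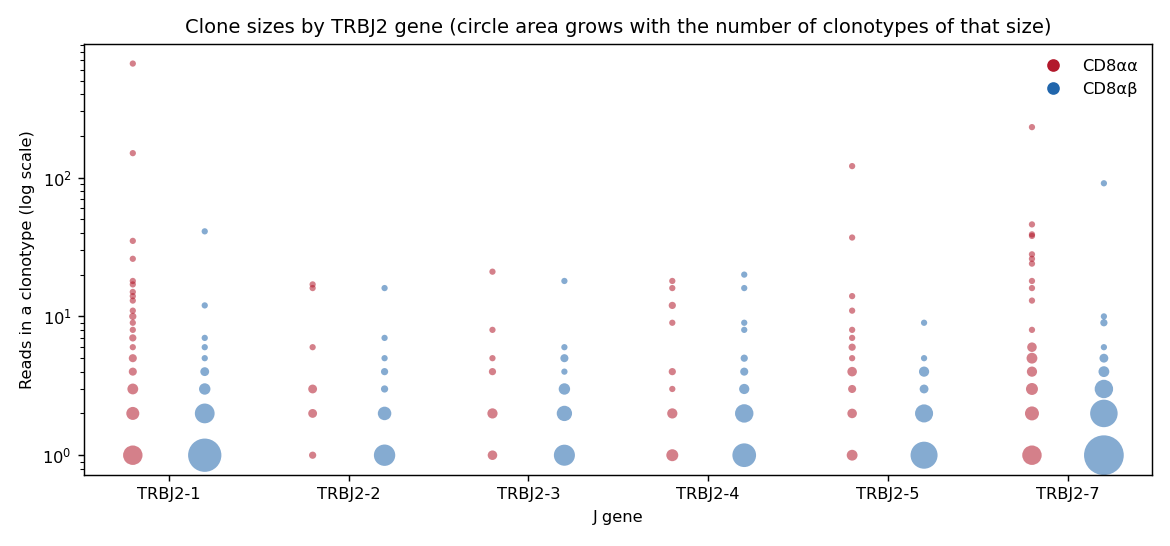
Reads in a clonotype (vertical axis, log scale) for each TRBJ2 gene, with CD8αα T cells in red and CD8αβ T cells in blue, and circle area growing with the number of clonotypes of that size. The top red circles are single clonotypes of 663 reads (TRBJ2-1), 231 reads (TRBJ2-7) and 121 reads (TRBJ2-5), and the widest blue circles are the 119 TRBJ2-7 and 83 TRBJ2-1 clonotypes with 1 read.

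Clonotypes with a single read made up 33.9% of the TRBJ2 clonotypes of CD8αα T cells (28.1 to 40.3) and 57.8% of those of CD8αβ T cells (53.9 to 61.6). The share was lower in CD8αα T cells for 4 of the 6 TRBJ2 genes (two-sided Fisher's exact test with adjustment over 12 TRBJ genes), against a background of 58.3% of the TRBJ genes. These were TRBJ2-1 at 39.7% against 64.8%, TRBJ2-2 at 15.4% against 63.5%, TRBJ2-5 at 24.1% against 60.7% and TRBJ2-7 at 34.6% against 55.3% (adjusted p = 0.00581, 0.00757, 0.00581 and 0.00678, Fisher's exact test). TRBJ2-3, at 31.3% against 51.6%, and TRBJ2-4, at 39.1% against 51.3%, did not pass. With 16 and 23 clonotypes in CD8αα T cells, their differences had intervals of -41.2 to 6.85 and -32.2 to 10.7 points.

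The V partners followed. V segments supply the first bases of CDR3 and the rest of the variable domain. TRBJ2 genes were joined to 20 V genes in CD8αα T cells against 24 in CD8αβ T cells, in 82 and 109 V-J pairs, of which 76 were in both libraries. TRBV16 was the V gene with the most TRBJ2 clonotypes in both, at 34, or 14.98%, in CD8αα T cells and 72, or 11.5%, in CD8αβ T cells. By clonotypes it led for TRBJ2-1 (8 and 17 clonotypes), TRBJ2-5 (9 and 10) and TRBJ2-7 (11 and 24) in both libraries. TRBJ2-2 was led by TRBV12-2 with 4 of its 13 clonotypes in CD8αα T cells and by TRBV12-1 with 6 of 52 in CD8αβ T cells. TRBJ2-3 was led by TRBV1 with 3 clonotypes in CD8αα T cells and by TRBV13-2 and TRBV16 with 10 each in CD8αβ T cells. For TRBJ2-4, 5 V genes tied with 3 clonotypes each in CD8αα T cells, and TRBV12-2 led with 11 clonotypes in CD8αβ T cells.

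By reads the leading V gene was that of the largest clonotype in most genes. In CD8αα T cells TRBV16 held 708 of the TRBJ2-1 reads, or 63.4%, TRBV5 held 238 of the TRBJ2-7 reads, or 36.3%, and TRBV1 held 121 of the TRBJ2-5 reads, or 46.4%. TRBV12-2 held 27 of the TRBJ2-2 reads and TRBV1 held 28 of the TRBJ2-3 reads, while TRBV3 and TRBV16 tied with 21 of the TRBJ2-4 reads. In CD8αβ T cells TRBV12-2 led TRBJ2-1 with 47 reads and TRBJ2-2 with 21 reads. TRBV16 led TRBJ2-3 with 27 reads, TRBJ2-4 with 46 reads and TRBJ2-5 with 16 reads, and TRBV4 led TRBJ2-7 with 105 reads, or 22.1%. The effective number of V partners counts how evenly the V genes were used. By clonotypes it was 14.7 and 15.3 for TRBJ2-1, and 11.4 and 14.9 for TRBJ2-7. It was 5.83 and 13.8 for TRBJ2-2, and 7.31 and 15.1 for TRBJ2-5. For TRBJ2-3 it was 9.85 and 10.4, and for TRBJ2-4 it was 9.62 and 11.3. This number cannot exceed the number of clonotypes, which was 13 for TRBJ2-2 and 29 for TRBJ2-5 in CD8αα T cells. By reads it was 2.34 and 11.6 for TRBJ2-1, and 5.58 and 11.1 for TRBJ2-7. Without its largest clonotype the value of TRBJ2-1 by reads was 6.03 and 13.5. The narrow V use of TRBJ2-1 in CD8αα T cells was therefore seen in its reads and not in its clonotypes.

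**Figure D3:**
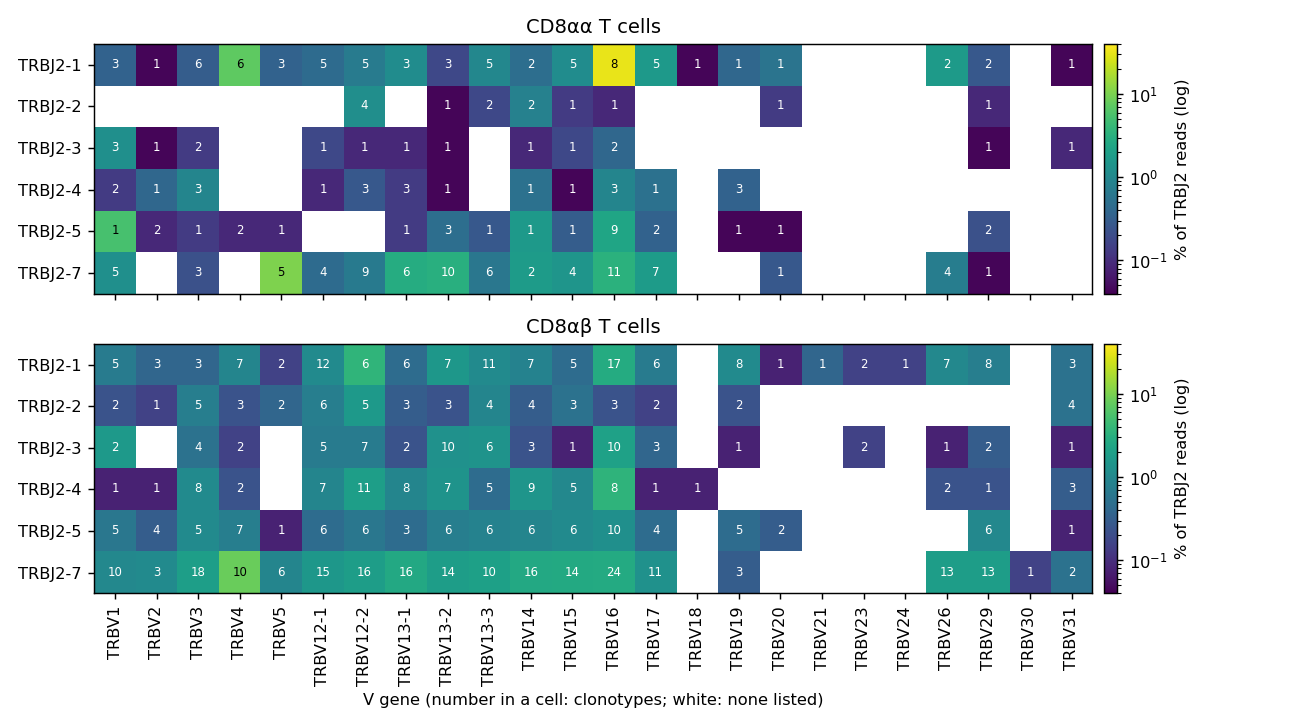
V partners of the 6 TRBJ2 genes (rows) over the V genes (columns) in CD8αα T cells above and CD8αβ T cells below, where the colour is the percent of TRBJ2 reads on a log scale, the number in a cell is the number of clonotypes, and white means none listed. The brightest cell is TRBV16 with TRBJ2-1 in CD8αα T cells, with 708 reads from 8 clonotypes, and TRBV4 with TRBJ2-7 is white above and has 10 clonotypes with 105 reads below.

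Of the 115 V-J pairs with a TRBJ2 gene, 45 differed by reads, 7 higher and 38 lower in CD8αα T cells (2-sided Fisher's exact test adjusted over 220 TCR β-chain pairs), where the background over all pairs was 33.6%. The 7 higher pairs, other than TRBV16 with TRBJ2-1, are named here after their values were seen. They were TRBV5 with TRBJ2-7 (238 against 12 reads), TRBV4 with TRBJ2-1 (162 against 12), TRBV1 with TRBJ2-5 (121 against 8), TRBV13-2 with TRBJ2-7 (70 against 24), TRBV16 with TRBJ2-5 (52 against 16) and TRBV17 with TRBJ2-1 (38 against 9). In TRBV5 with TRBJ2-7, 231 of the 238 CD8αα reads were from 1 clonotype. TRBV1 with TRBJ2-5 was 1 clonotype in CD8αα T cells against 5 in CD8αβ T cells. TRBV13-2 with TRBJ2-7 was spread over 10 clonotypes in CD8αα T cells, and TRBV16 with TRBJ2-5 over 9. TRBV4 thus went with TRBJ2-1 in CD8αα T cells and with TRBJ2-7 in CD8αβ T cells by reads. On each side most of these reads were from 1 clonotype, with 150 of 162 and 91 of 105 reads. By clonotypes TRBV4 with TRBJ2-1 was at 6 and 7, and TRBV4 with TRBJ2-7 at 0 and 10.

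By clonotypes none of the 115 pairs passed after adjustment, where the background was 0%, and 2 had an unadjusted p under 0.05. These were TRBV3 with TRBJ2-1, at 6 clonotypes in CD8αα and 3 in CD8αβ T cells (Fisher's exact test, p = 0.0143, adjusted p = 1), and TRBV19 with TRBJ2-4, at 3 and 0 (Fisher's exact test, p = 0.0194, adjusted p = 1). For TRBV19 with TRBJ2-4 the count of 0 in CD8αβ T cells allows up to 0.418% of the clonotypes (upper Wilson bound). Even the largest pair, TRBV16 with TRBJ2-7, had only 11 and 24 clonotypes. These tests could therefore call only large differences, and pairs that did not pass are not shown to be alike.

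CDR3 length was measured in amino acids and includes the conserved residue at each end. Over clonotypes, the TRBJ2 genes other than TRBJ2-7 had nearly the same mean length in both libraries, and TRBJ2-7 did not. TRBJ2-7 CDR3s averaged 13.8 ± 1.36 aa (SD over 78 clonotypes) in CD8αα T cells and 13.005 ± 1.54 aa (SD over 215 clonotypes) in CD8αβ T cells, so the difference was 0.829 aa (SE over clonotypes 0.187). The other 5 genes together averaged 14.3 ± 1.51 aa over 149 clonotypes and 14.3 ± 1.46 aa over 411 clonotypes, a difference of 0.00451 aa (SE 0.143). The difference of TRBJ2-7 less that of the other 5 was 0.824 aa (SE 0.235), and TRBJ2-7 was set apart after the lengths had been seen. Singly, the differences of the other genes ran from -0.346 aa (SE 0.447) for TRBJ2-2 to 0.489 aa (SE 0.385) for TRBJ2-5. They were of either sign, so they cancel in part in the joint mean, and each gene alone was not resolved. TRBJ2-7 has the shortest germline part of the 6 genes, and it had the shortest mean CDR3 of the 6 in both libraries.

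**Figure D4:**
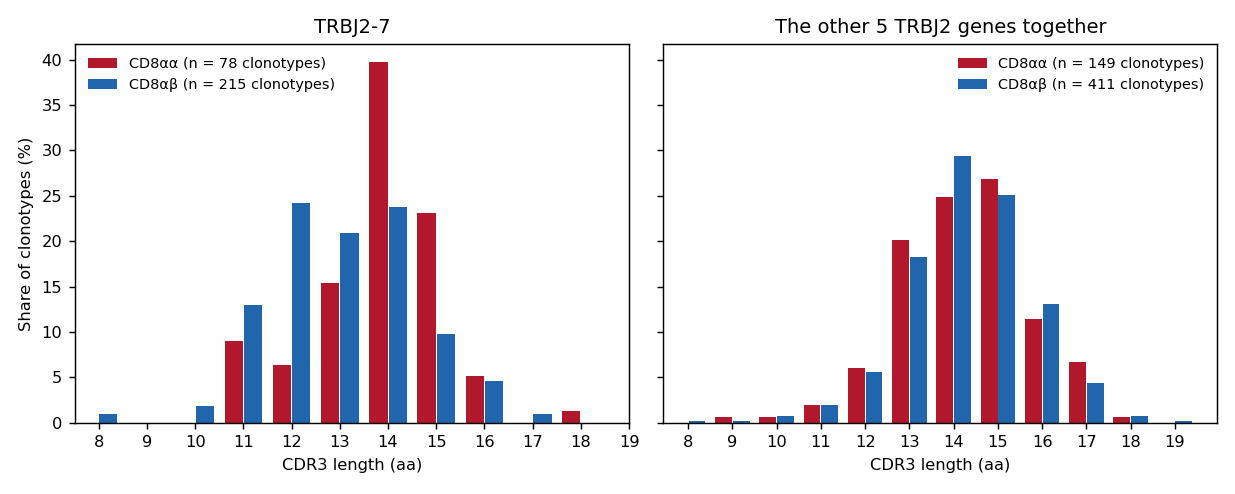
Share of clonotypes in percent (vertical axis) at each CDR3 length in amino acids (horizontal axis) for TRBJ2-7 and for the other 5 TRBJ2 genes together, in CD8αα (red) and CD8αβ (blue) T cells. In TRBJ2-7 the blue bar at 12 aa stands at 24.2% against 6.41% for red and the red bar at 14 aa at 39.7% against 23.7% for blue, while for the other genes the bars of both colours follow each other.

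The TRBJ2-7 lengths differed at both ends. CDR3s of 15 aa or more made up 23 of 78 clonotypes in CD8αα T cells, or 29.5%, and 33 of 215 in CD8αβ T cells, or 15.3%, a difference that was not tested. TRBJ2-5 also had a larger share of these long CDR3s in CD8αα T cells, at 48.3% against 24.7% of its clonotypes. The share was higher there for TRBJ2-2 and TRBJ2-3 as well, and lower for TRBJ2-1 and TRBJ2-4. CDR3s of 12 aa or fewer made up 12 of 78 TRBJ2-7 clonotypes in CD8αα T cells, or 15.4% (9.03 to 24.99), and 86 of 215 in CD8αβ T cells, or 40% (33.7 to 46.7). The difference was -24.6 points (-33.8 to -13.1; two-sided Fisher's exact test, p = 7.22e-05, adjusted p = 0.000866 over 12 TRBJ genes), and both the test and the limit of 12 aa were chosen after the lengths had been seen. Of the 6 TRBJ2 genes 1 was called, TRBJ2-7, with a background of 8.33% of the TRBJ genes. In the other 5 genes together, short CDR3s made up 14 of 149 clonotypes, or 9.40% (5.68 to 15.2), and 36 of 411, or 8.76% (6.39 to 11.9), a difference of 0.637 points (-4.22 to 6.86). Singly, the other genes had 1 to 4 short clonotypes in CD8αα T cells, or 5.88% to 15.4% of a gene. In CD8αβ T cells they had 2 to 13, or 3.85% to 12.4%. The share was higher in CD8αα T cells for each of them but TRBJ2-1, and none was called.

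The short TRBJ2-7 CDR3s of CD8αβ T cells did not come from 1 clonotype or 1 V gene. They were joined to 16 V genes, the most frequent of which, TRBV12-2, had 10 of the 86, or 11.6%, and 44 of the 86 had 1 read. By reads, short CDR3s held 235 of the TRBJ2-7 reads of CD8αβ T cells, or 49.4%, which includes the 91 reads of the largest clonotype at 12 aa, and 25 of those of CD8αα T cells, or 3.81%. Without the largest clonotype of each gene the difference by clonotypes was -24.1 points, and with at least 2 reads, which sets aside the 1-read clonotypes, it was -33.9 points (adjusted p = 0.000907 and 0.000181, Fisher's exact test).

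The CDR3 bases were then split into the V part, the middle (D bases and added bases) and the J part. In TRBJ2-7 the middle was 11.2 ± 4.40 bases in CD8αα and 9.54 ± 4.25 bases in CD8αβ T cells (SD over clonotypes), a difference of 1.64 bases (SE 0.576). The V part was 14.3 ± 2.34 and 13.7 ± 2.29 bases, a difference of 0.623 (SE 0.307). The J part was 16 ± 3.19 and 15.8 ± 3.17 bases, a difference of 0.223 (SE 0.421), smaller than its error. Most of the difference in TRBJ2-7 length was therefore in the middle, and the least of it in the J bases. TRBJ2-5 had a middle 1.62 bases longer in CD8αα T cells as well (SE 0.888), with 29 and 89 clonotypes, and the differences in the middle of the other 4 genes ran from -1.45 bases (SE 1.27) for TRBJ2-4 to 0.923 bases (SE 1.35) for TRBJ2-2. These part lengths are given as descriptions and were not tested.

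**Figure D5:**
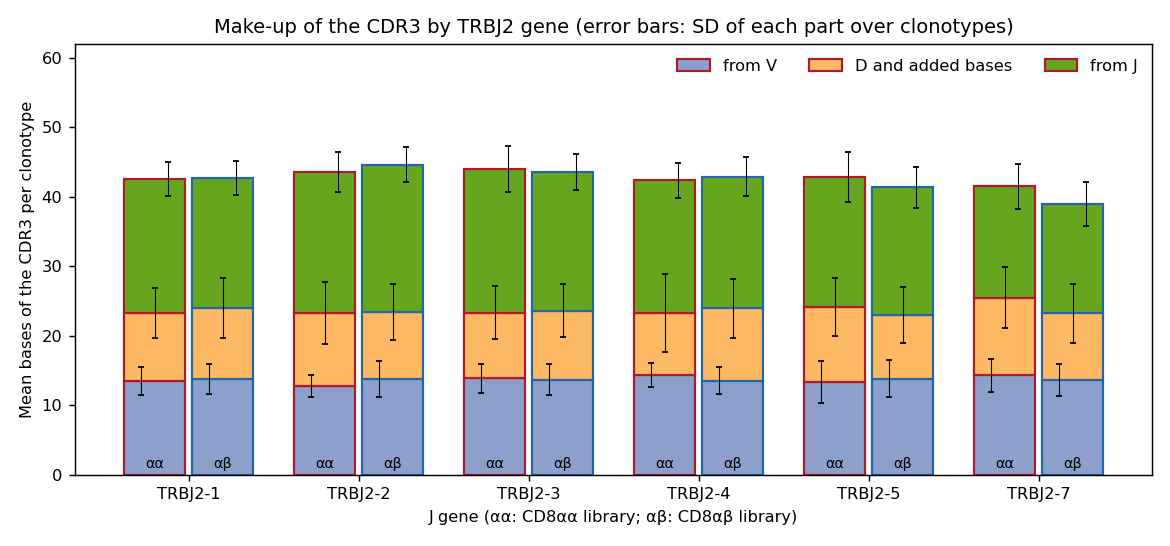
Mean bases of the CDR3 per clonotype (vertical axis) from V (blue fill), from D and added bases (orange) and from J (green) for each TRBJ2 gene, with red outlines for CD8αα and blue outlines for CD8αβ T cells and error bars for the SD of each part over clonotypes. The green part is shortest for TRBJ2-7, at 16 and 15.8 bases, and the TRBJ2-7 orange part is 11.2 bases in CD8αα against 9.54 bases in CD8αβ T cells.

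Weighted by reads, the largest clonotypes moved the mean lengths. TRBJ2-1, at 14.2 aa in both libraries over clonotypes, was over reads at 13.6 aa in CD8αα T cells against 14.5 aa in CD8αβ T cells, and its largest CD8αα clonotype had 13 aa. TRBJ2-5 was at 15.1 and 13.6 aa over reads, and its largest CD8αα clonotype had 16 aa. TRBJ2-7 was at 13.8 and 12.9 aa over reads, close to its means over clonotypes.

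Trimming of the J end is given for each gene as a description. TRBJ2-7 had lost the most bases on average in both libraries, 3.38 ± 2.57 in CD8αα and 3.61 ± 2.46 in CD8αβ T cells (SD over clonotypes), and TRBJ2-3 the fewest, 1.31 ± 2.57 and 1.66 ± 1.92. No base was missing from the J end in 62.5% of the TRBJ2-3 clonotypes of CD8αα T cells (38.6 to 81.5) and 40.3% of those of CD8αβ T cells (29.0 to 52.7). For TRBJ2-1 the same shares were 19.1% (11.5 to 30.01) and 10.2% (6.03 to 16.6), and for TRBJ2-7 they were 25.6% (17.3 to 36.3) and 21.9% (16.9 to 27.9). In each of the 6 genes the intervals of the 2 libraries overlapped. The largest TRBJ2-1 clonotype of CD8αα T cells shown above had lost 6 bases of its J gene, and the largest TRBJ2-7 clonotype of that library had lost 3.

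D segments are short and partly alike, so a D hit could be read only where it was not tied. The germline segments are shown for that reason, TRBD1 at chr6:41533201-41533212 and TRBD2 at the place given above, in lower case throughout.
TRBD1: gggacagggggc
TRBD2: gggactgggggggc
Of the TRBJ2 clonotypes with an untied D hit, 119 of 168 in CD8αα T cells, or 70.8% (63.6 to 77.2), and 266 of 449 in CD8αβ T cells, or 59.2% (54.6 to 63.7), had TRBD2. The difference was 11.6 points (3.06 to 19.4), in a comparison added after the data were seen. In TRBJ1 clonotypes TRBD2 was at 6.85% and 6.75% of the untied hits, a measure of how often a D hit falls on a segment downstream of the J gene. None of the 6 TRBJ2 genes passed singly (two-sided Fisher's exact test with adjustment over 12 TRBJ genes, background 0%), and 2 had an unadjusted p under 0.05. These were TRBJ2-5, with TRBD2 in 17 of 21 and 26 of 54 clonotypes (adjusted p = 0.129, Fisher's exact test), and TRBJ2-7, with 45 of 63 and 86 of 156 (adjusted p = 0.197, Fisher's exact test). TRBJ2-1 was at 62% and 65.2%. Between 41.0% and 85.7% of the untied hits of each gene were TRBD2, so both D segments were found with every TRBJ2 gene.

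The constant gene hit did not set TRBJ2 apart. TRBJ2 is followed by TRBC2, and TRBC2 was the first constant hit in 95.5% of the 200 TRBJ2 clonotypes with a constant hit in CD8αα T cells (91.7 to 97.6) and in 96.7% of the 518 in CD8αβ T cells (94.8 to 97.9). TRBJ1 clonotypes, whose J cluster is followed by TRBC1, had TRBC2 first in 90.5% (83.0 to 94.9) and 94.9% (91.1 to 97.1). The median gap between the TRBC2 and TRBC1 scores of a clonotype was 5 in both J clusters and both libraries. TRBC1 came first in 9 TRBJ2 clonotypes of CD8αα T cells and in 17 of CD8αβ T cells, where it was tied with TRBC2 in 7 and 16. No constant hit was listed for 11.9% (8.30 to 16.8) and 17.3% (14.5 to 20.4) of the TRBJ2 clonotypes, of which 37.0% and 69.4% had 1 read.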

How the data were processed

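The authors assembled clonotypes from bulk RNA-seq reads of 1 library for each cell type with MiXCR 3.0.12 and deposited for each clonotype a raw read count that was not normalized. The fraction of all listed reads and a base quality score of the CDR3 were also deposited, and neither was used for the results. The labels name the genome build mm10, and the MiXCR command and reference library are not given in the sources used here.

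Chains were taken from the first V and J hits, and CDR3 parts from the reference points in the lists. Germline sequences and coordinates came from GENCODE M21. Tests used scipy 1.17.1, tables pandas 2.3.3 and numpy 2.4.6, and plots matplotlib 3.10.9, under Python 3.11.15. Shares have 95% Wilson intervals and differences Newcombe intervals. Two-sided Fisher's exact tests were run over all TRBJ genes or V-J pairs with Benjamini-Hochberg adjustment (threshold 0.05). Only the test of TRBJ genes by clonotypes was tried on simulated data, with independent clonotypes. The tests on reads, on V-J pairs and within a J gene were not simulated. Precision is limited by 2995 and 1850 TCR β-chain reads.

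The members, lists and tests were chosen with earlier results of these data known. All 6 genes are named, with the largest clonotype of each, its leading V genes, and V-J pairs past the threshold by clonotypes, or, with none, past it unadjusted. The tests of neighbours in the order, of short CDR3s and of D segments, and the omission of the 2 largest clonotypes, were chosen after the data were seen. Alternatives were merged amino acid CDR3s, at least 2 reads, merging of CDR3s 1 nucleotide from a clonotype with 10 times the reads, omission of the largest, shared or J-tied clonotypes, TRBJ2 alone as the denominator, tied constant hits counted apart, and lengths weighted by reads.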

Additional observations from a re-analysis of the deposited data

How the results depend on the processing

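Leaving out the largest clonotype of each gene lowered the TRBJ2 share of reads from a difference of 5.57 to 2.0004 percentage points, and leaving out the 2 largest, chosen after the data were seen, lowered it to 0.419 (Fisher's exact test, p = 0.215 and 0.834). Fewer reads and clonotypes remain by construction. The count of TRBJ genes that differ by reads was 10, then 5 and 6. TRBJ2-7 turned from -3.83 to 1.25 and 4.10 points. V-J pairs with a TRBJ2 gene that differ by reads numbered 45, then 34 and 27. With tied constant hits counted apart, TRBC2 was at 98.96% and 99.8% of the TRBJ2 clonotypes with an untied constant hit. Weighted by reads, the length differences of TRBJ2-1 and TRBJ2-5 were -0.961 and 1.45 aa. The merged, 2-read, shared and J-tied alternatives left each result compared on its side of its threshold and counts close to the main ones, and with at least 2 reads the TRBJ2-5 share of clonotypes went from -1.12 to 0.591 points and the TRBJ2-1 length difference from -0.0510 to 0.00867 aa, neither a called value. With TRBJ2 alone as the denominator the TRBJ2-1 share of clonotypes, a difference of 9.51 points, was called. No paired analysis was possible because each cell type has 1 library. Depth limits the clonotype shares, as with 13 TRBJ2-2 clonotypes in CD8αα T cells.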
